A study of Mus musculus with 4 samples.

Results

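Eukaryotic DNA is copied from origins that are prepared before S phase and fired within it. The origin recognition complex, Cdc6 and Cdt1 load the MCM helicase onto DNA. Cdc45 and the GINS complex then turn that ring into an active helicase, and primase, the replicative polymerases, the PCNA clamp and its loader RFC extend the new strands. Embryonic stem cells divide quickly and spend much of their cycle in S phase. Here 44 of these genes, chosen by name as origin, helicase, polymerase, clamp, single-strand binding, flap and topoisomerase, and nucleotide supply genes, were followed in PRO-seq libraries. They were 44 of the 12486 genes in the count table.

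PRO-seq labels the 3′ end of RNA that polymerase is still extending in isolated nuclei, so a count per gene reads engaged polymerase over that gene and not the amount of mRNA. The cells were mouse embryonic stem cells (mESCs), line AN3-12, grown without feeders with LIF. All 4 libraries came from AID-Zfp574 cells, in which the zinc-finger protein Zfp574 carries an N-terminal auxin-inducible degron and the plant F-box protein OsTir1 is expressed under EF1a together with ARF16 and mCherry. The 2 control libraries were from untreated cells (0 h), and the 2 depletion libraries from cells kept for 6 h in 500 uM indole-3-acetic acid (IAA), which sends the tagged protein to the proteasome. The labels describe 2 biological replicates per condition. The tagged cells were a picked line, cells without the degron were not among the libraries, and so an effect of IAA itself cannot be told apart from that of depletion. The comparison asks how transcription of the replication genes stood 6 h after the loss of Zfp574.

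The control libraries held 3298864 and 3616429 counts, the depletion libraries 6045216 and 5670904, and replicates differed beyond counting noise, since their chi-square over genes was 1.88 (control) and 1.49 (depletion) for each degree of freedom. Zfp574 itself, on which the degron acts as protein, so that its transcription does not check the loss, stood at 24.0 and 35.5 CPM (the counts-per-million scale, after TMM scaling) in the controls and at 32.8 and 39.0 CPM after depletion. Of the 12 stem cell markers, 11 had a row and were tested. Their summed level ran from 4454.5 to 4586.7 CPM over the libraries, and Pou5f1, Nanog and Sox2, which define pluripotent cells, stood at 80.6 CPM or more in every library. Of 18 markers of other lineages and of feeders, 7 had a row and 4 passed the filter on low counts, with a summed level of 52.0 to 59.1 CPM. The highest of these 4 was Sox1, at 23.7 to 25.9 CPM, above Dppa5a and Lin28a. The marker levels were not scaled to gene length.

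The replication genes were well transcribed and moved little. All 44 passed the filter on low counts, among 11853 genes tested. After depletion 2 of them fell at an adjusted p under 0.05 (edgeR quasi-likelihood test, Benjamini-Hochberg over all genes), Rrm2 and Mcm10, and 0 rose. Over all genes tested, 1.40% were called lower and 1.11% higher, and no test of the 2 of 44 against that background was run. No replication gene changed 2-fold or more, where 0.321% of all genes did so in either direction at the same adjusted p. At an unadjusted p under 0.05 in the same edgeR test, 13 replication genes were lower and 1 was higher, Prim2, against 7.66% and 8.53% of all genes.

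Most of the small differences pointed down. The log2 fold change (depletion over control) was below 0 in 33 of the 44 genes, with a median of -0.09, while over all genes tested 50.6% were below 0 and the median was -0.002. In 21 of the 44 both depletion libraries lay below both controls, and in 3, Prim2, Rpa1 and Top1, both lay above. The corresponding shares of all genes were 22.9% and 23.4%. These counts describe genes that share libraries and, in many cases, a protein complex, and no test was run over the group. Summed over the 44 genes the level was 5540.8 and 5635.7 CPM in the controls and 5370.2 and 5446.6 CPM after depletion, a sum of which Pola1 held the largest share. In such bulk libraries, fewer cells in S phase and less transcription per cell cannot be told apart.

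**Figure D1:**
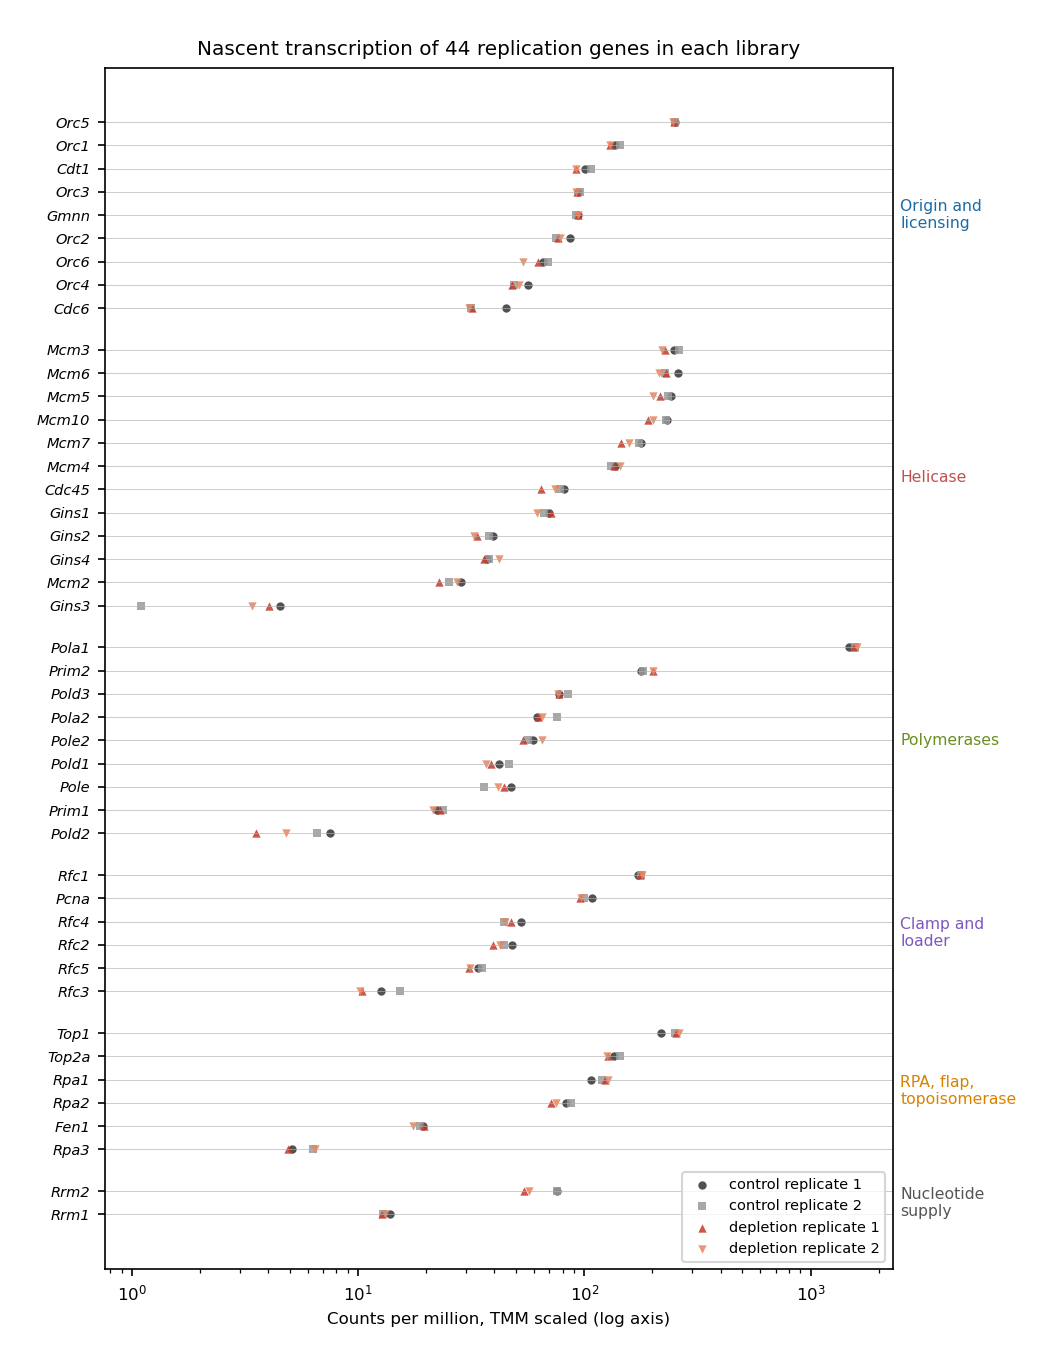
Level of each of the 44 replication genes in each library, in CPM after TMM scaling on a log axis, grouped by role and ordered by level within a role. Circles and squares are the control libraries and triangles the depletion libraries. Most genes show the 4 libraries close together, Rrm2 and Mcm10 show both depletion libraries to the left of both controls, and Gins3, Pold2 and Rpa3 lie at the low end.

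Rrm2 encodes the small, S-phase subunit of ribonucleotide reductase, the enzyme that makes deoxyribonucleotides, and it showed the clearest difference. The gene (ENSMUSG00000020649) spans chr12:24708241-24714146 on the plus strand of mm10. It stood at 75.7 and 75.3 CPM in the controls and at 54.3 and 57.1 CPM after depletion, from 252 and 276 counts against 323 and 321. Both depletion libraries were low, far outside the gap between the controls. This was a log2 fold change of -0.44 (SE 0.092, 95% interval -0.63 to -0.25) at an adjusted p of 0.00540 by the edgeR quasi-likelihood test (Benjamini-Hochberg). Rrm1, which encodes the large subunit of the same enzyme, stood at 13.8 and 12.8 CPM in the controls and at 12.8 and 13.2 CPM after depletion. The conditions overlapped for Rrm1, with a log2 fold change of -0.04 and an interval from -0.42 to 0.35, which stops just short of the value of Rrm2. Whether the subunits differed in their response was not tested.

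Mcm10 encodes a helicase cofactor that binds the MCM ring when origins fire, and was the other gene called. It spans chr2:4989714-5012791 on the minus strand (ENSMUSG00000026669). Its level was 232.9 and 229.0 CPM in the controls and 190.8 and 200.9 CPM after depletion. The depletion libraries both lay below the controls, with a larger spread between them than between the controls. This was a log2 fold change of -0.24 (SE 0.061, interval -0.36 to -0.11) at an adjusted p of 0.0284 by the edgeR quasi-likelihood test (Benjamini-Hochberg).

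Both calls depended on the test and on single libraries. DESeq2 with its own size factors called 0 of the 44 genes, at adjusted p-values of 0.349 for Rrm2 and 0.759 for Mcm10, where 0.481% of all genes were called lower. DESeq2 with the size factors recovered from the deposited comparison called both again (0.0367 and 0.0401), where 0.913% of all genes were called lower. Without depletion replicate 1, the edgeR quasi-likelihood test (Benjamini-Hochberg) called neither, with 0.126 for Rrm2 and 0.340 for Mcm10. Mcm10 also lost its call without control replicate 1 (0.0725) and without depletion replicate 2 (0.153) in that test. The log2 fold change stayed between -0.48 and -0.40 for Rrm2 and between -0.27 and -0.20 for Mcm10 in these smaller fits. In each smaller fit where a call was lost, the share of all genes called lower was also smaller than with all libraries.

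The promoters of these genes are given here with the words they hold, because several replication genes are textbook targets of E2F, the factor that switches on S-phase genes, and of NF-Y, which binds CCAAT. Windows of 200 bases around the RefSeq start (170 before to 30 after, GRCm38.p6) are written 5′ to 3′ on the strand of the gene. For the genes that were called, capitals mark CCAAT, a word that the MCM promoters shown further below hold as well. The window of Rrm2 is chr12:24708084-24708283 on the plus strand and that of Mcm10 is chr2:5012762-5012961 on the minus strand. In the window Rrm2 has the word once, at position -50 from the start, and Mcm10 has it at -98 and -23.
Rrm2: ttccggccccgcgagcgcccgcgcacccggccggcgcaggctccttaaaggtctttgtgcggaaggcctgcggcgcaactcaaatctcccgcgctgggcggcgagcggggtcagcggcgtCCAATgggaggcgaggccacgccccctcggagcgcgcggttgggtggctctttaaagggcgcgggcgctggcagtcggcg
Mcm10: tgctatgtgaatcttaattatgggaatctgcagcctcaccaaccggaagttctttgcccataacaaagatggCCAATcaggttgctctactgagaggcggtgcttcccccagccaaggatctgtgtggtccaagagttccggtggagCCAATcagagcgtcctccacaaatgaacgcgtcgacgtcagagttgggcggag
Neither gene holds one of the E2F words TTTCCCGC, TTTGGCGC, TTTCGCGC or TTTGCCGC on either strand within 250 bases before to 50 after its start. That says only that these letters are not in the window.

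The values of the MCM genes lay on both sides of 0. Mcm2 to Mcm7 encode the subunits of a ring with 1 copy of each, which unwinds DNA at the fork, and Mcm3, Mcm5 and Mcm7 showed depletion libraries below controls while Mcm4 did not. Of the 6 genes, 0 passed the threshold and 3 had an unadjusted p under 0.05 by the edgeR quasi-likelihood test. Over all genes tested, 1.40% were called lower and 7.66% were lower at the unadjusted threshold. Both depletion libraries lay below both controls in 22.9% of all genes. Summed over the 6 genes, the level was 1092.7 and 1053.0 CPM in the controls and 974.7 and 964.1 CPM after depletion.

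Mcm7 stood at 178.8 and 173.6 CPM in the controls and at 145.7 and 157.5 CPM after depletion. Mcm5 stood at 242.5 and 235.0 CPM against 215.4 and 200.04 CPM. Mcm3 stood at 247.9 and 260.6 CPM against 226.3 and 220.9 CPM. In each of these genes both depletion libraries were lower than both controls. The log2 fold changes were -0.22 for Mcm7, -0.20 for Mcm5 and -0.19 for Mcm3, with adjusted p-values of 0.0758, 0.0805 and 0.0939 by the edgeR quasi-likelihood test (Benjamini-Hochberg), just outside the threshold. In edgeR they passed it where libraries were scaled to their totals or to the recovered size factors (0.00332 to 0.0461). They also passed in edgeR with replicate number as a term (0.0142 to 0.0248), and with recovered factors and gene length trend together. With genes under a mean count of 100 left out, Mcm5 and Mcm7 passed (both 0.0450) and Mcm3 did not (0.0518). These genes did not pass in DESeq2 with the recovered size factors (0.0945 to 0.157) or with its own. In edgeR with TMM and the gene length trend they did not pass either (0.170 to 0.258).

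Mcm6 stood at 258.5 and 227.6 CPM in the controls and at 229.0 and 214.5 CPM after depletion. Its ranges overlapped slightly, since control replicate 2 lay just under depletion replicate 1, and its log2 fold change was -0.13. Mcm2 stood at 28.6 and 25.1 CPM against 22.8 and 27.4 CPM, again with overlap, and a log2 fold change of -0.09 with an interval from -0.39 to 0.20. Mcm4 stood at 136.4 and 131.0 CPM against 135.6 and 143.8 CPM. For Mcm4 the libraries were mixed and the log2 fold change was 0.06, with an interval from -0.08 to 0.20 that does not reach the values of Mcm3, Mcm5 and Mcm7. It turned to -0.04 with the recovered size factors. The difference between Mcm4 and the other MCM genes was not tested.

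The promoters of the 4 MCM genes of this set that hold an E2F word in the window follow, with those words in capitals, to set beside their levels. A word found on the opposite strand appears as its reverse complement. Mcm3 lies at chr1:20820283-20820482 on the minus strand, Mcm5 at chr8:75109339-75109538 on the plus strand, Mcm6 at chr1:128359676-128359875 on the minus strand and Mcm7 at chr5:138171854-138172053 on the minus strand.
Mcm3: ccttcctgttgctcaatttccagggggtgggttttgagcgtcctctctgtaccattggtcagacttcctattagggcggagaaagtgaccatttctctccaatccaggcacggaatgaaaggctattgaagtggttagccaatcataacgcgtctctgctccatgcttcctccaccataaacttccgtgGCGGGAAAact
Mcm5: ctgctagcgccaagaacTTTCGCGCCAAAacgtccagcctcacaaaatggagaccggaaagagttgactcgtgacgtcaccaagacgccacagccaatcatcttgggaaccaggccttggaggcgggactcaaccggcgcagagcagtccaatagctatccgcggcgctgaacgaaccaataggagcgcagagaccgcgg
Mcm6: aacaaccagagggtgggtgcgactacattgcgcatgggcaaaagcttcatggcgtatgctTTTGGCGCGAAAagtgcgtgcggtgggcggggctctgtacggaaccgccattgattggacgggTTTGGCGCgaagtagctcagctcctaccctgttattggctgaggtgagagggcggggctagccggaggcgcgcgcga
Mcm7: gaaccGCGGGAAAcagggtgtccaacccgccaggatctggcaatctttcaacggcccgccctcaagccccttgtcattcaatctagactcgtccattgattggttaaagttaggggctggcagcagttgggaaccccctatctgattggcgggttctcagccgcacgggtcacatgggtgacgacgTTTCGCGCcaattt
In the printed window Mcm3 has TTTCCCGC just after the start, at position 20, on the opposite strand. In Mcm5 the words at -153 and -149 overlap on opposite strands as a near palindrome. Mcm6 has the same arrangement at -110 and -106 and a further word at -47. Mcm7 has words at -165 and 17. Mcm4 had no entry in the promoter table.

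Over the group, 36 of the 44 genes had a RefSeq promoter (250 bases before to 50 after the start, 300 bases). An E2F word on either strand was in 14 of the 36, or 38.9%, compared with 4.6% of the 9297 tested genes with a promoter and 2.26% of all 32851 promoters in the table. On the strand of the gene alone it was in 8, or 22.2%, compared with 2.5% of the tested genes. The 14 were Cdc6, Cdt1, Gins3, Mcm3, Mcm5, Mcm6, Mcm7, Orc1, Orc3, Pola1, Pold1, Pold3, Pole2 and Rfc3. CCAAT on either strand was in 24 of the 36, or 66.7%, compared with 39.0% of the tested genes and 37.41% of all promoters. On the strand of the gene alone CCAAT was in 12, or 33.3%, compared with 23.0% of the tested genes. TATAAA on either strand was in 2, Cdc45 and Fen1, or 5.6%, compared with 6.8% of the tested genes. The 14 genes with an E2F word had a median log2 fold change of -0.15 and the other 22 of -0.08, a description without a test that rested on the choice of words. With a shorter core, the same words without their first T, 21 of the 36 genes held a word (58.3%, compared with 18.4% of the tested genes and 9.57% of all promoters), and the medians were -0.11 with and -0.11 without it. On the strand of the gene alone, the shorter core gave -0.08 with and -0.11 without. The starts used by the study were corrected with CAGE data and may differ from the RefSeq starts.

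Cdc45 and GINS complete the active helicase. Cdc45 stood at 81.1 and 77.8 CPM in the controls and at 64.2 and 73.9 CPM after depletion, below in both, with a log2 fold change of -0.20 and an adjusted p of 0.259 by the edgeR quasi-likelihood test (Benjamini-Hochberg). Gins2 stood at 39.4 and 37.9 CPM against 33.4 and 32.6 CPM, a log2 fold change of -0.23 that did not pass (0.346). The other GINS genes overlapped between conditions. Gins1 had a log2 fold change of -0.03 and Gins4 of 0.05. Gins3 had the largest positive value of all 44 genes, 0.45, which rested on 15 and 4 counts in the controls against 24 and 19 after depletion, and its interval ran from -0.43 to 1.33. The control libraries of Gins3 differed from each other more than the conditions did.

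Of the 9 origin and licensing genes, 8 had a log2 fold change below 0, none passed the threshold, and the median was -0.08. Cdc6, an ATPase that loads the MCM ring, stood at 45.1 and 31.4 CPM in the controls and at 31.9 and 30.8 CPM after depletion. Control replicate 1 alone was high. Its log2 fold change was -0.27 over all 4 libraries, -0.52 without control replicate 2, where the edgeR quasi-likelihood test (Benjamini-Hochberg) called it (0.0179), and -0.001 without control replicate 1. Cdt1, the partner of Cdc6 in loading, stood at 100.7 and 107.0 CPM against 92.2 and 91.8 CPM, lower in both depletion libraries, with a log2 fold change of -0.18 and an adjusted p of 0.246 in the same edgeR test. Gmnn encodes geminin, the inhibitor of Cdt1, and stood at 93.5 and 92.0 CPM against 93.2 and 93.8 CPM. The 4 libraries of Gmnn lay within 2 CPM of each other, and its interval ran from -0.15 to 0.17.

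The origin recognition complex marks the sites where loading occurs. Its 6 genes all had log2 fold changes below 0, from -0.22 for Orc6 to -0.03 for Orc5, and 0 were called. Orc1 stood at 136.7 and 143.3 CPM in the controls and at 129.5 and 129.4 CPM after depletion. Orc6 stood at 65.8 and 68.8 CPM against 62.3 and 53.4 CPM. In both genes the conditions did not overlap, as was also so for Orc3 and Orc5. In these 4 genes both depletion libraries lay below both controls, as they did in 22.9% of all genes tested. Of all genes tested, 50.6% had a log2 fold change below 0 and 1.40% were called lower. The adjusted p was 0.435 for Orc1 and 0.267 for Orc6 by the edgeR quasi-likelihood test (Benjamini-Hochberg). Orc2 and Orc4 overlapped between conditions, at -0.06 and -0.08 on the log2 scale.

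**Figure D2:**
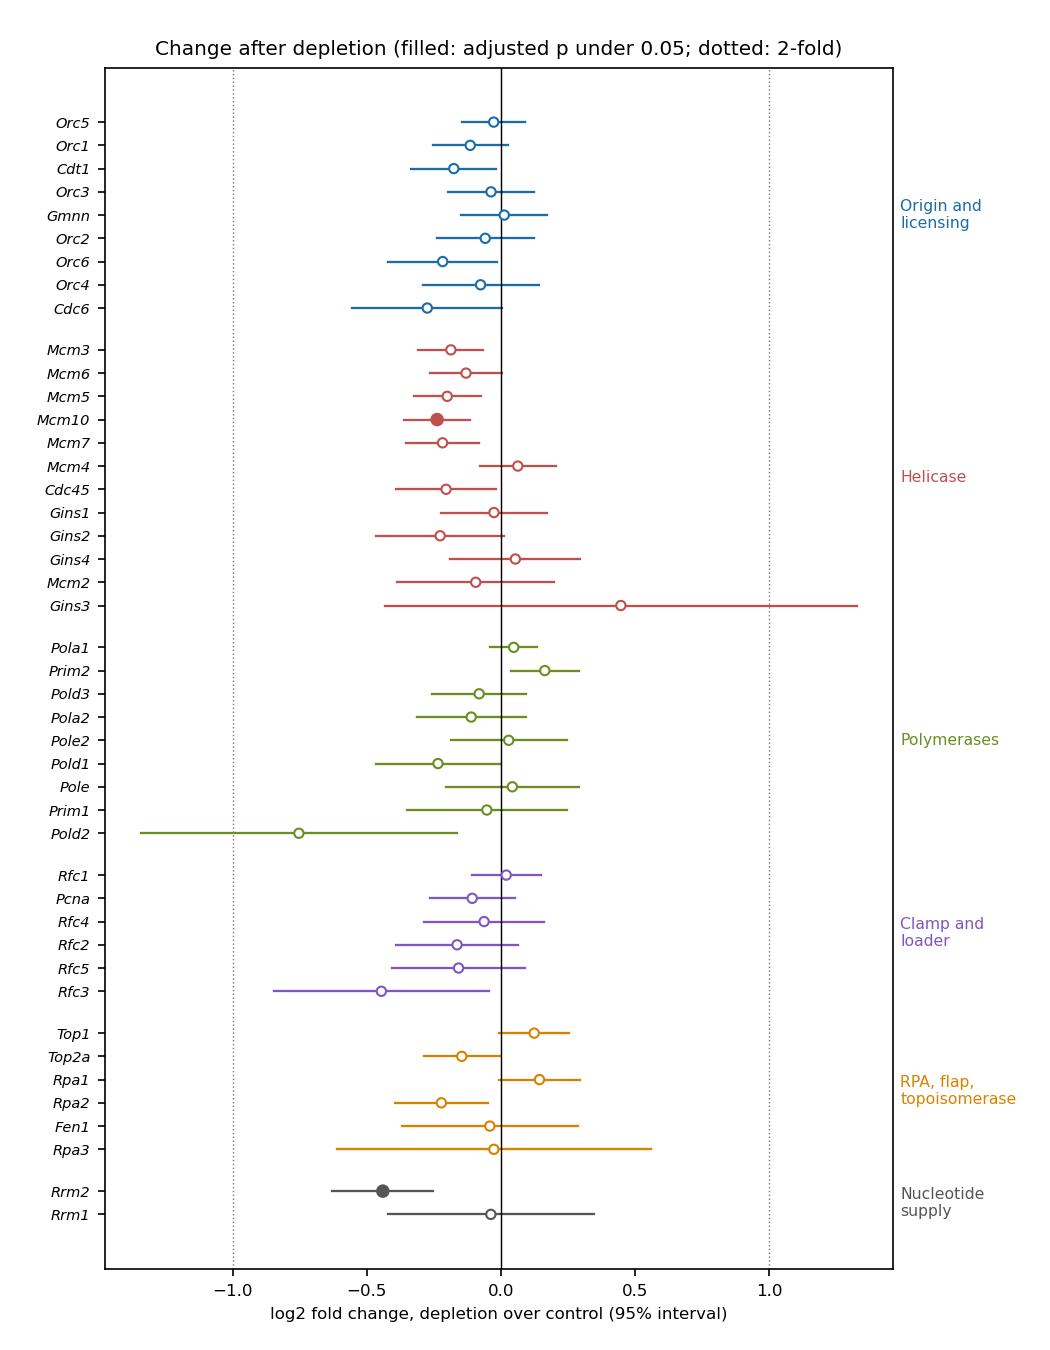
Log2 fold change, depletion over control, of each replication gene with its 95% interval, from the edgeR quasi-likelihood fit, grouped by role. Filled points passed an adjusted p of 0.05 and dotted lines mark a 2-fold change. The points of Rrm2 and Mcm10 are filled, 33 of 44 points lie left of 0, and the widest intervals belong to Gins3, Pold2 and Rpa3.

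The polymerase genes held both the lowest log2 fold change of the 44 genes, that of Pold2, and the smallest p among positive values, that of Prim2, and neither passed the threshold. Pold2, the accessory subunit of polymerase delta, which synthesises the lagging strand, stood at 7.51 and 6.55 CPM in the controls and at 3.53 and 4.81 CPM after depletion. These levels rested on 25 and 24 counts against 21 and 27, in libraries that were deeper after depletion. Both depletion libraries were lower, with a log2 fold change of -0.75 and an interval from -1.34 to -0.16. Its adjusted p was 0.175 by the edgeR quasi-likelihood test (Benjamini-Hochberg). Pold1, the catalytic subunit of the same polymerase, stood at 42.1 and 46.4 CPM against 38.5 and 36.8 CPM, a log2 fold change of -0.23, and Pold3, another accessory subunit, had -0.08.

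Prim2, the large subunit of primase, stood at 177.6 and 182.3 CPM in the controls and at 201.9 and 201.5 CPM after depletion, with both depletion libraries higher. This gave a log2 fold change of 0.16, with an interval from 0.04 to 0.29 and an adjusted p of 0.168 by the edgeR quasi-likelihood test (Benjamini-Hochberg). With the recovered size factors and an offset for gene length it turned to -0.06. Prim2 is 216.0 kb long. Prim1, the catalytic subunit of primase, stood at 22.2 and 23.7 CPM against 23.0 and 21.4 CPM, with the conditions mixed and a log2 fold change of -0.05.

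Pola1 encodes the catalytic subunit of polymerase alpha, which extends the primers, and collected the most reads of all 44 genes over its 327.4 kb on chromosome X. Its level was 1473.8 and 1573.2 CPM in the controls and 1550.4 and 1600.0 CPM after depletion, with overlap. Its log2 fold change was 0.05, with an interval from -0.04 to 0.14, the narrowest of the group. Pola2 stood at -0.11 on the same scale. Polymerase epsilon, which synthesises the leading strand, had Pole at 0.04 and Pole2 at 0.03, both with overlapping conditions. With the recovered size factors and an offset for gene length, Pola1 turned negative and was called lower in edgeR. In that fit 7.10% of all genes were called lower.

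The clamp gene Pcna stood at 108.2 and 99.6 CPM in the controls and at 95.8 and 97.0 CPM after depletion. Both depletion libraries were slightly lower, and the log2 fold change was -0.11 with an interval from -0.26 to 0.05. Of the 5 genes of the clamp loader RFC, which opens the PCNA ring onto DNA, 4 had values below 0. Rfc3, a small subunit, stood at 12.6 and 15.3 CPM against 10.4 and 10.1 CPM, with a log2 fold change of -0.45 and an adjusted p of 0.247 by the edgeR quasi-likelihood test (Benjamini-Hochberg). Rfc2 was at -0.16, Rfc5 at -0.16, Rfc4 at -0.06 and Rfc1, the large subunit, at 0.02.

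The subunits of RPA, which coats single-stranded DNA, had values on both sides of 0. Rpa2 stood at 82.9 and 87.1 CPM in the controls and at 70.9 and 75.1 CPM after depletion. Rpa1 stood at 106.7 and 119.3 CPM against 122.8 and 127.4 CPM. Rpa2 was thus lower and Rpa1 higher in both depletion libraries, at -0.22 and 0.14 on the log2 scale, with adjusted p-values of 0.179 and 0.344 by the edgeR quasi-likelihood test (Benjamini-Hochberg). Rpa3 had 17 and 23 counts against 29 and 36, too few to read a change from, with an interval from -0.61 to 0.56. The difference between Rpa1 and Rpa2 was not tested.

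Top1, which relieves supercoiling, stood at 218.8 and 252.2 CPM in the controls and at 253.0 and 261.3 CPM after depletion. Control replicate 1 was the low library, and the log2 fold change of 0.12 became 0.23 without control replicate 2, where the edgeR quasi-likelihood test (Benjamini-Hochberg) called it higher (0.0390). Top2a, which untangles sister chromatids, stood at 134.6 and 144.4 CPM against 127.0 and 125.5 CPM, a log2 fold change of -0.15 that did not pass (0.292). Fen1, the nuclease that trims flaps of the lagging strand, stood at 19.2 and 18.8 CPM against 19.5 and 17.4 CPM, with overlap and a log2 fold change of -0.04.

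**Figure D3:**
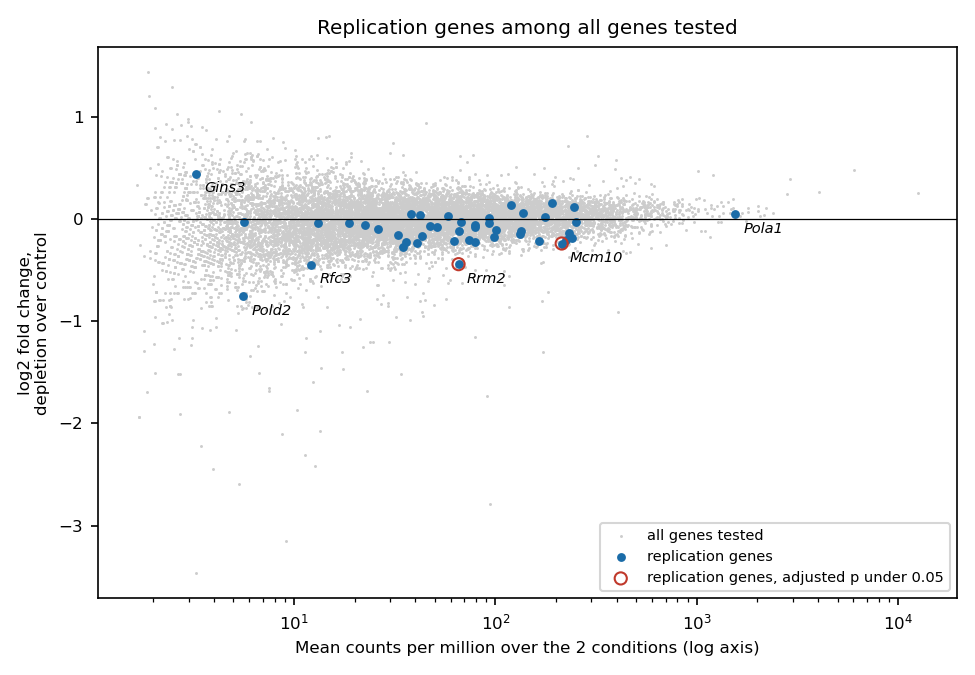
Log2 fold change, depletion over control, against mean level in CPM on a log axis. Grey points are the 11853 genes tested, blue points the 44 replication genes, and the circled points Rrm2 and Mcm10. The replication genes sit within the cloud of all genes, mostly just under the line at 0, and none lies beyond -1 or 1.

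Under TMM scaling the libraries bounded most of the replication genes narrowly. The intervals hold no uncertainty of the scaling itself, and other scalings moved the values, as given below. In 39 of the 44, or 88.6%, the 95% interval of the log2 fold change lay within 1.5-fold either way, compared with 73.8% of all genes tested. In 42 of the 44 it lay within 2-fold, as it did in 11028 of all 11853 genes tested. The replication genes with an interval beyond 2-fold were Gins3 and Pold2. The median reach of the interval on each side was 0.19 on the log2 scale, against 0.25 over all genes. The replication genes also had higher counts, with a median control level of 77.5 CPM against 35.4 CPM. Small changes could go uncalled with 2 libraries per condition, and the reach of an interval is not the limit for a call. The interval of Mcm7, for example, ran from -0.35 to -0.08. Its adjusted p was 0.0758 by the edgeR quasi-likelihood test (Benjamini-Hochberg over all genes).

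The number of differences called moved with the scaling of the libraries and with the test. Size factors recovered from the deposited comparison shifted the median of all genes to -0.11 and that of the replication genes to -0.19, leaving the latter 0.085 below the former, as under TMM. With them 11 replication genes were called lower by the edgeR quasi-likelihood test, Cdc45, Cdt1, Mcm10, Mcm3, Mcm5, Mcm6, Mcm7, Orc6, Rpa2, Rrm2 and Top2a, where 5.89% of all genes were called lower. DESeq2 with the same factors called 2, as above. The recovered factors differed between replicates of a condition, while the methods of the study describe 1 spike-in factor for each condition, so what they stand for was not settled. Scaling to library totals gave 5, Mcm10, Mcm3, Mcm5, Mcm7 and Rrm2, with 1.70% of all genes called lower in edgeR. No replication gene was called higher under any of these scalings. Of all genes, 0.540% were called higher with library totals and 0.413% with the recovered factors in edgeR. In DESeq2 with those factors it was 0.0320%. The spike-in reads themselves were not analysed here.

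**Figure D4:**
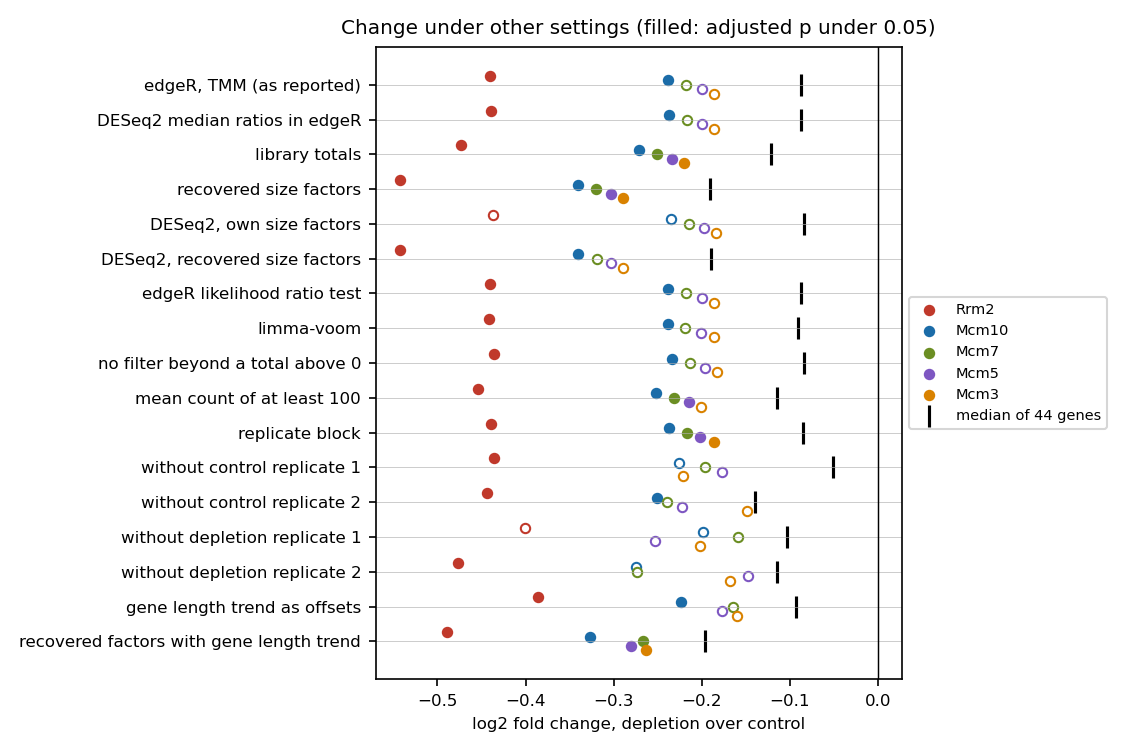
Log2 fold change, depletion over control, of Rrm2, Mcm10, Mcm7, Mcm5 and Mcm3 under each setting tried, with filled points where the adjusted p was under 0.05 and a bar for the median of the replication genes (44, or the 38 tested where a mean count of at least 100 was required). Rrm2 lies left of the other 4 genes in every setting and all 5 stay below 0, while the number of filled points runs from 0 to 5.

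Levels were compared between genes per kb of annotated gene, since counts ran over whole transcripts, introns included. Reads near the start were not set apart from the rest, and they weigh more per kb in a short gene. In the controls Pcna was highest, at 25.0 CPM per kb, followed by Mcm7 at 22.5, Cdt1 at 18.7 and Mcm3 at 14.7 CPM per kb. Pcna and Mcm7 differed by more than the spread of either, with 26.1 and 24.0 CPM per kb in the control libraries against 22.8 and 22.1. Rrm2 at 12.8 and Mcm5 at 12.7 CPM per kb did not differ beyond their spread, nor did Mcm10 at 10.0 and Mcm4 at 9.90. Gins3 was lowest at 0.241 CPM per kb, with Rrm1 next at 0.475. The median of the group was 2.98 CPM per kb, against 1.52 over all genes tested, and 38 of the 44 lay above the latter.

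Levels per kb also differed within complexes. Of the MCM ring, Mcm7 stood at 22.5 CPM per kb and Mcm2 at 1.75, with Mcm3, Mcm5, Mcm4 and Mcm6 between 14.7 and 8.66. Of ribonucleotide reductase, Rrm2 stood at 12.8 CPM per kb and Rrm1 at 0.475. Of the GINS genes, Gins2 stood at 3.62 CPM per kb and Gins3 at 0.241, and of polymerase delta, Pold1 at 2.75 and Pold2 at 1.15. The span of each gene was taken from GENCODE M21, and the transcript over which the authors counted was not known. The annotated transcripts of Mcm7 run from 0.935 to 7.84 kb and those of Rrm1 from 0.498 to 28.1 kb, so a level per kb, and this order, would change with another choice.

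**Figure D5:**
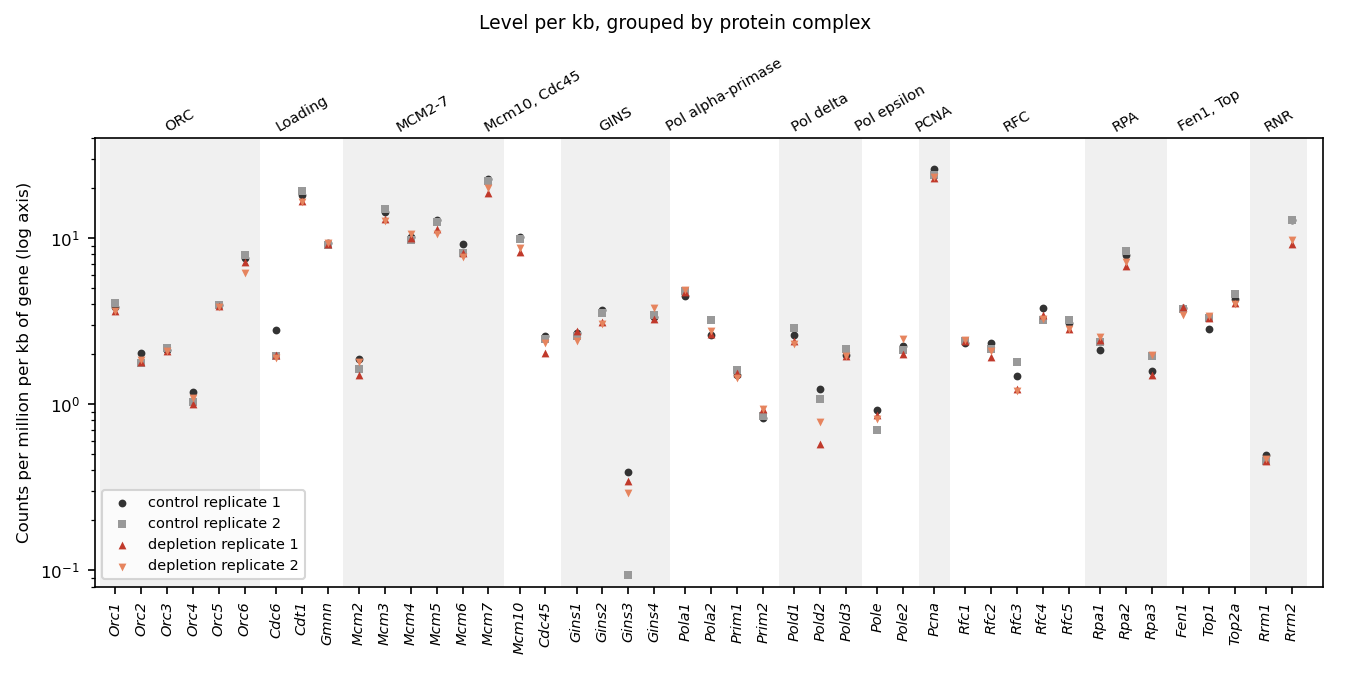
Level of each replication gene per kb of annotated gene in each library, in CPM per kb on a log axis, with the genes grouped by protein complex. Circles and squares are controls and triangles are depletion libraries. Genes of the MCM ring differ far more than the libraries do, as with Mcm7 at 22.5 and Mcm2 at 1.75 CPM per kb in the controls.

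Longer replication genes tended to have higher log2 fold changes. Spearman's rho between gene length and log2 fold change was 0.45 across the 44 genes and 0.27 across all genes tested, a description across genes, which share libraries and are not independent replicates. Offsets for a smooth trend on length left Rrm2 and Mcm10 as the called genes and the median at -0.09. Some replication genes share a start region with a gene on the other strand. There were 7 whose start lay within 1000 bp of such a gene, and 0 of the 7 partners were called. In 5 pairs the log2 fold changes had the same sign. These were Orc1 and Prpf38a (-0.11 and -0.09, starts 87 bp apart), Orc3 and Rars2 (-0.04 and -0.27, 13 bp), Rpa3 and Umad1 (-0.03 and -0.07, 115 bp), Rpa1 and Smyd4 (0.14 and 0.19, 109 bp), and Mcm4 and Prkdc (0.06 and 0.14, 466 bp). In 2 pairs the signs were opposite, Gins1 and Abhd12 (-0.03 and 0.18, 659 bp) and Pole and Pxmp2 (0.04 and -0.13, 120 bp).

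The other genes of the replication pathway, 41 in all and covering origin firing kinases, fork protection, ligase and nucleotide enzymes, were read from a list of their own. Of the 38 tested, 0 were called in either direction, 5 were lower and 3 higher at an unadjusted p under 0.05 by the edgeR quasi-likelihood test, 26 were below 0, and the median was -0.07. For this list and those that follow, the shares of all genes tested were 1.40% called lower and 1.11% called higher, and 7.66% and 8.53% at the unadjusted threshold. In 16 of the 38 both depletion libraries lay below both controls and in 8 both lay above, where 22.9% and 23.4% of all genes did. Of 13 E2F and RB family genes 8 were below 0 and 5 above, with a median of -0.04. Of these 1 was called, Tfdp1, a DNA-binding partner of E2F proteins. The related Tfdp2 was at 0.07 and was not called. Tfdp1 stood at 223.6 and 226.3 CPM in the controls and at 184.8 and 187.8 CPM after depletion, without overlap. Its log2 fold change was -0.27 (SE 0.060), at an adjusted p of 0.00968 by the edgeR quasi-likelihood test (Benjamini-Hochberg). E2f1, the activator that drives S-phase genes, stood at 120.2 and 114.1 CPM against 105.8 and 102.3 CPM, with -0.17 and an adjusted p of 0.243 in the same test. Rb1, which encodes the RB protein that restrains E2F, stood at 80.5 and 90.9 CPM against 101.3 and 100.02 CPM, higher in both depletion libraries, with 0.23 and an adjusted p of 0.139 in that test.

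Of 12 cyclins, kinases and inhibitors of the G1/S step, 10 were below 0, with a median of -0.15, 4 were lower and 0 higher at an unadjusted p under 0.05, and Ccnd1 (cyclin D1) was called. It stood at 182.4 and 190.2 CPM in the controls and at 158.2 and 158.0 CPM after depletion, without overlap, with a log2 fold change of -0.24 and an adjusted p of 0.0380 by the edgeR quasi-likelihood test (Benjamini-Hochberg). Of 18 genes of G2 and mitosis, 0 were called, 5 were lower and 2 higher at an unadjusted p under 0.05, and the median was -0.11. Of the 11 stem cell markers tested, Utf1 was called lower, from 38.8 and 46.9 CPM to 28.9 and 27.4 CPM, a log2 fold change of -0.61 at an adjusted p of 0.00358 by the edgeR quasi-likelihood test (Benjamini-Hochberg). Its part in the values of the replication genes was not tested. Tfdp1, Ccnd1 and Utf1 lost their calls in DESeq2 with its own size factors, at adjusted p-values of 0.410, 0.940 and 0.304. In edgeR each of the 3 also lost its call without depletion replicate 1 and without depletion replicate 2, at 0.0519 to 0.293. Ccnd1 and Utf1 also lost them without control replicate 2 (0.145 and 0.0739), and Ccnd1 with the gene length trend (0.144) and in DESeq2 with the recovered factors (0.0814).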

How the data were processed

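PRO-seq was run on nuclei of AID-Zfp574 mESCs, with nuclei of Drosophila S2 cells added as a spike-in. The authors split off the molecular identifier of each read, trimmed adapters (cutadapt 1.18), mapped to mm10 keeping uniquely placed reads (Bowtie 1.2.2), collapsed reads by identifier and kept the 3′ end of each nascent RNA on its strand. The deposited counts are whole numbers of such reads per gene over CAGE-corrected transcripts, and are not normalized. The authors also deposited a DESeq2 comparison. Its fold changes and p-values were not used, and its mean signal served to recover the authors' size factors as an alternative scaling (0.699 and 0.740 for the controls, 1.32 and 1.24 after depletion). These factors differ between replicates, whereas the study's methods give each condition a single spike-in factor.

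Groups came from the labelled treatment. Counts were filtered (filterByExpr, minimum count 10, minimum total 15, which removed 633 genes), scaled with TMM and fitted with edgeR 4.0.16 in R 4.3.3 by the quasi-likelihood test, two-sided, with condition as the only term. P-values were adjusted by Benjamini-Hochberg over 11853 genes and read at 0.05. Standard errors and 95% intervals follow from the F statistic. CPM are given per library, and depth is stated with the results. Alternatives were other scalings, DESeq2 1.42.0, a likelihood ratio test, limma-voom (limma 3.58.1), other filters, a replicate block, a gene length trend, and leaving out each library. Named genes were those past the threshold, the 5 largest falls and rises, a list by role, the highest and lowest per kb, called genes of the other lists, and Zfp574. Genes named beyond these were chosen after their values were seen. The replication genes, lists and sequence words were chosen with earlier results of these data known. Gene spans came from GENCODE M21 (12474 of 12486 identifiers matched) and promoters from RefSeq on GRCm38.p6. Words were counted with Python 3.11.15. Scripts were tested on simulated data.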

Additional observations from a re-analysis of the deposited data

How the results depend on the processing

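The calls of 2 replication genes lower and 0 higher were the same with DESeq2's median ratios in edgeR, edgeR's likelihood ratio test, limma-voom, no filter, the gene length trend and DESeq2 with the recovered factors. In those settings 0.913% to 1.72% of all genes were called lower and 0.0320% to 1.32% higher. Elsewhere, except where single libraries were left out, the count lower is given with the share of all genes called lower in the same fit. It was 5 with library totals (1.70%), 11 with the recovered size factors (5.89%) and 0 with DESeq2's own size factors (0.481%). It was 4 with genes under a mean count of 100 left out (2.05%) and 10 with recovered factors and length trend together (7.10%). Leaving out each library in turn gave 0 to 3 lower and 0 to 1 higher, and a median of the group between -0.140 and -0.051. In these fits of 3 libraries the lone library is assumed to vary like the others. The shares of all genes called lower and higher also moved between them. Those shares were largest without control replicate 2, the fit with the highest counts in the group. They were smallest without depletion replicate 1, where 0 of the group were called. These counts therefore cannot be read as a change in the group alone. That median was -0.121 with library totals, -0.191 with recovered factors, -0.189 with recovered factors in DESeq2, -0.115 with genes under a mean count of 100 left out and -0.196 with recovered factors and length. The median of the other replication factors was -0.108, -0.178 and -0.179 with the first 3 of these, -0.207 with the last, -0.105 with the length trend alone and -0.074 to -0.051 without single libraries. The E2F words were in 8 promoters on the strand of the gene only. In every setting run, 0 replication genes combined a change of at least 2-fold with an adjusted p under 0.05.

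Signs turned mostly for small values. Pola1 was also called lower where it turned with recovered factors and length, as were 7.10% of all genes. With library totals Gmnn was at -0.021, Pole2 at -0.0043 and Rfc1 at -0.014. With the recovered factors in edgeR, Gmnn was at -0.090, Mcm4 at -0.039, Gins4 at -0.049, Pola1 at -0.055, Pole at -0.060, Pole2 at -0.073 and Rfc1 at -0.083. In DESeq2 they were at -0.090, -0.039, -0.046, -0.055, -0.063, -0.071 and -0.083. With genes under a mean count of 100 left out, Gmnn was at -0.0019. With the length trend Pola1 was at -0.088, Rfc1 at -0.042, Rpa3 at 0.027 and Fen1 at 0.014. With recovered factors and length, Gmnn was at -0.043, Mcm4 at -0.0023, Gins4 at -0.0048, Pola1 at -0.191, Prim2 at -0.060, Pole at -0.096, Pole2 at -0.066, Rfc1 at -0.145 and Top1 at -0.044. Without single libraries the values ran from -0.123 to 0.035 for Fen1, -0.132 to 0.072 for Gins1, -0.277 to 1.74 for Gins3, -0.052 to 0.161 for Gins4, -0.227 to 0.037 for Mcm2, -0.159 to 0.042 for Orc2, -0.177 to 0.025 for Orc4, -0.245 to 0.050 for Pola2, -0.151 to 0.247 for Pole, -0.118 to 0.171 for Pole2, -0.106 to 0.00000998 for Prim1, -0.0037 to 0.046 for Rfc1, -0.183 to 0.059 for Rfc4, -0.230 to 0.165 for Rpa3 and -0.093 to 0.015 for Rrm1. Zfp574 passed the threshold without control replicate 2, at 0.57 on the log2 scale. The causes were not tested. The replicate block gave 5 genes lower, Mcm10, Mcm3, Mcm5, Mcm7 and Rrm2, where 2.53% of all genes were called lower and 3.09% higher. The deviations of same-numbered libraries correlated at 0.034 over all genes tested. That value includes counting noise, so whether the replicate numbers pair the samples was not settled. Of the single-gene results over all settings, 666 kept their sign and side of the threshold and 50 turned in sign. Of the others, 27 gained a call and 19 lost one. The gained call of Pola1 is counted with the results that turned. The recovered factors in DESeq2, those with length and the count over any start were added after seeing the data.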
